A study of Mus musculus with 40 samples.

Results

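The tubulin isotype genes of mouse spermatocytes are described here in 40 single cells from testis, 20 named Metaphase I and 20 named Pachytene. The set holds 9 of the 55492 genes of the deposited table, chosen by symbol: the alpha tubulin genes Tuba3a, Tuba3b, Tuba1a, Tuba1b, Tuba1c and Tuba4a, the beta tubulin genes Tubb4b and Tubb5, and the gamma tubulin gene Tubg1. All cells came from 6 to 8 weeks old mice of strain C57BL/6J. Pachytene spermatocytes were isolated by centrifugal elutriation, which separates cells by size and density, per the labels' protocols. Entry into metaphase I was then induced by culture with 4 µM okadaic acid, an inhibitor of the phosphatases PP1 and PP2A, for 5 h. One protocol text stands on all 40 libraries, so the name Metaphase I was read as treated, and the sources used here do not say whether Pachytene cells were kept in drug-free culture. Stage, drug and time in culture are therefore 1 contrast and cannot be told apart.

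Microtubules are polymers of alpha and beta tubulin dimers, and they are nucleated from ring complexes that hold gamma tubulin. Each kind of tubulin is made from several genes whose proteins differ mainly in their carboxy-terminal tails, where many tubulin modifications are placed. In male meiosis the same proteins form the interphase network of the spermatocyte and the bipolar spindle of the division, and afterwards the manchette and the axoneme of the spermatid. The comparison asks how the transcripts of these genes differ between metaphase I spermatocytes and pachytene spermatocytes.

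No label names an animal or a culture, so each group of 20 cells counts as 1 sample, and differences are described without a test. Library totals lay between 198117 and 1497037 counts in Metaphase I (median 540662) and between 165048 and 2325564 counts in Pachytene (median 730979). Levels are counts per 1000000 of the cell or group total (CPM), and all intervals are exact, at 95%, and cover counting error only. Late spermatocyte markers summed to a median of 21235 CPM per cell in Metaphase I and 20472 CPM in Pachytene, and all 12 genes of that list were detected in each group. In 8 libraries, 4 of each group, X-linked genes held over 0.3% of the counts. Among these libraries, spermatid markers summed to 7330, 3478, 3076 and 662 CPM in Metaphase I replicates 3, 7, 17 and 19. In the 4 Pachytene libraries they summed to between 7702 and 8417 CPM. Medians over all cells were 1321 CPM in Metaphase I and 1408 CPM in Pachytene. Metaphase I replicate 19 stood apart: its 14 Sertoli cell markers summed to 15340 CPM, of which 9 were detected, against 220 CPM in the next highest Metaphase I cell and at most 16.1 CPM in any Pachytene cell. The Sertoli markers Gata4, Rhox5 and Fshr were at 0 in all 40 cells. The late spermatocyte markers of replicate 19 summed to 9832 CPM, the lowest value of the 40 cells. Its spermatogonia markers summed to 483 CPM and its markers of other somatic cells to 224 CPM, both the highest of the 40 cells. The next highest cells had 89.5 CPM and 47.6 CPM. The part of such RNA in the tubulin results was not tested, and results are given with and without these libraries where they move.

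The first question for these genes is whether near-identical copies can be counted apart, and the transcript sequences show where they can. The sequences below are from the GENCODE M21 annotation, build GRCm38. The last 30 coding bases of 5 alpha tubulin genes are shown 5′ to 3′ on the coding strand, since they encode the tail and lie near the 3′ ends that the libraries captured. Capitals mark the last codon before the stop codon.
Tuba3a, chr6:125278358-125278387, minus strand: gcagaggcagaagaaggggaggagTACtga
Tuba3b, chr6:145621358-145621387, plus strand: gcagaggcagaagaaggggaggagTACtga
Tuba1b, chr15:98931582-98931611, minus strand: gagggggaggaagaaggagaggagTACtaa
Tuba1c, chr15:99037980-99038009, plus strand: gaaggagacgatgagggtgaggaaTATtaa
Tuba4a, chr1:75215622-75215651, minus strand: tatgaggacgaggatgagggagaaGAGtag
The last codon was TAC or TAT, which encode tyrosine, in every gene shown but Tuba4a, where it was GAG, which encodes glutamate. The encoded tyrosine is the residue that vasohibins remove and tubulin tyrosine ligase adds back. Tuba3a and Tuba3b were identical over these bases.

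Over the whole coding sequence of 1353 bases, Tuba3a and Tuba3b differed at 41 positions and were 97.0% identical. All 41 differences were at the third base of a codon, and 0 codons changed the residue, so that both genes encode the same protein. The 60 coding bases with the most differences (coding bases 313 to 372, 9 differences) are shown for both genes, with differing bases in capitals. Reads that cover a differing base can be told apart, but the libraries kept 3′ ends, so their reads need not reach this window.
Tuba3a, chr6:125282356-125282415, minus strand: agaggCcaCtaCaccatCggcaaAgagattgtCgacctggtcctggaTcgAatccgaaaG
Tuba3b, chr6:145618818-145618877, plus strand: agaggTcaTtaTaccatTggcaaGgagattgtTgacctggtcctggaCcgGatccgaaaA
The 3′ ends were more alike than this window. The last difference in the coding sequence was at base 1206, and the first 32 bases after the stop codon were the same in both genes. Of the windows of 50 bases within the last 500 bases of either transcript, 36.4% were also in the other transcript, and of windows of 150 bases 8.55%. A read that falls wholly within such a window fits both genes, and the sources used here do not say how the authors' counting treated such reads. The split between the pair is therefore uncertain, and levels of their sum are given as well.

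Tuba3a and Tuba3b, the testis alpha tubulin genes, lie on chromosome 6 at 125278274 to 125286042 on the minus strand and at 145615757 to 145621479 on the plus strand. They were among the most abundant transcripts of both groups. Tuba3b ranked 12 of all genes in Metaphase I and 14 in Pachytene by CPM, and Tuba3a ranked 16 in Metaphase I and 21 in Pachytene. Tuba3a had 893, 2604 and 3797 CPM as the lowest, median and highest of the 20 Metaphase I cells, against 1449, 2376 and 3201 CPM in Pachytene. Tuba3b had 1374, 3014 and 4958 CPM in Metaphase I and 1578, 2829 and 4391 CPM in Pachytene. The ranges of the groups overlapped almost entirely for both genes, and Metaphase I replicates 18 and 19 were the lowest 2 cells for each. Every one of the 40 cells held both transcripts. The sum of the pair had 2288, 5570 and 8516 CPM as the lowest, median and highest in Metaphase I, against 3154, 5244 and 7341 CPM in Pachytene.

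Summed over cells, Tuba3a had 2739 CPM (2711 to 2767) in Metaphase I and 2284 CPM (2262 to 2306) in Pachytene, which is 1.20-fold (1.18 to 1.22). Tuba3b had 3349 CPM (3319 to 3380) in Metaphase I and 2750 CPM (2726 to 2775) in Pachytene, or 1.22-fold (1.20 to 1.23). For the pair together the levels were 6088 CPM in Metaphase I and 5034 CPM in Pachytene, or 1.21-fold (1.20 to 1.22). These intervals lie above 1 for counting error alone, while the spread among the cells of a group was far wider than the difference. The log2 ratio of the pair was 0.27, it was 0.09 when the medians over cells of the summed pair were compared, it was 0.32 without Metaphase I replicate 19, and it was 0.25 without the 8 X-linked libraries.

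**Figure D1:**
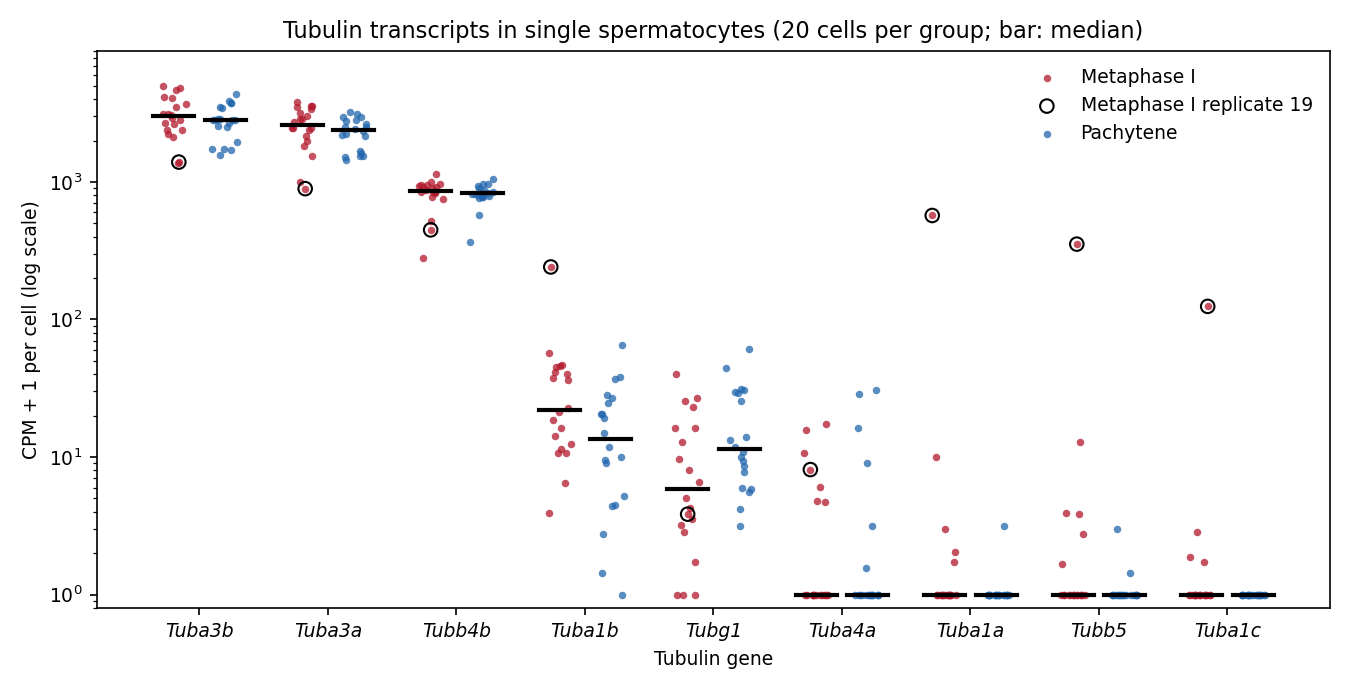
CPM + 1 of each tubulin gene in each cell on a log scale, with Metaphase I (red, left) and Pachytene (blue, right), 20 points per group and a bar at the median. Circles mark Metaphase I replicate 19, which was low for Tuba3a and Tuba3b and reached 569 CPM for Tuba1a, where both medians were 0.

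The summed ratio within the pair was close between the groups, while single cells varied. Tuba3a made up 45.0% (44.6 to 45.3) of the summed counts of the pair in Metaphase I and 45.4% (45.0 to 45.7) in Pachytene. Single cells ran from 39.0% in replicate 19 to 48.9% in replicate 4 of Metaphase I, and from 37.7% in replicate 13 to 51.7% in replicate 3 of Pachytene. Tuba3b was the higher gene in 20 of 20 Metaphase I cells and in 19 of 20 Pachytene cells. Per kilobase of exon (1509 and 1775 bases), the 2 genes were closer, at 1815 CPM per kb for Tuba3a and 1887 CPM per kb for Tuba3b in Metaphase I, and at 1513 and 1549 CPM per kb in Pachytene. Counts from 3′ ends need not scale with length, so neither scale fixes the order.

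Across the 40 cells, Tuba3a and Tuba3b moved together, with a Spearman correlation of 0.95 (0.96 in the 20 Metaphase I cells and 0.92 in the 20 Pachytene cells). The cells share libraries, depth and stage, and reads that fit both genes would also tie them, so the value is a description. Among 4301 genes with at least 1000 summed counts, the ones most like Tuba3a over the 40 cells were Cox7b2 (0.87), a germline cytochrome c oxidase subunit, Taf1b (0.84), a subunit of the RNA polymerase I factor, and Cox4i1 (0.84), a cytochrome c oxidase subunit. Those most like Tuba3b were Cox4i1 (0.89), Rsph1 (0.87), a radial spoke head protein of the axoneme, and Stmn1 (0.86), the tubulin-binding protein stathmin. Both genes tracked the axis gene Hormad1, at 0.70 each. They ran opposite to Pgk2, the germline phosphoglycerate kinase that rises late in meiosis, at -0.59 for Tuba3a and -0.67 for Tuba3b, but not to Ldhc, the germline lactate dehydrogenase gene, at 0.52 with each. With the summed spermatid markers the values were -0.51 for Tuba3a and -0.55 for Tuba3b. With Ccnb1, which encodes cyclin B1, the correlation was -0.50 for Tuba3a and -0.56 for Tuba3b. The values with Hormad1, Pgk2, Ldhc and Ccnb1 kept their sign in each group of 20 cells. Over the 32 cells left without the X-linked libraries, Ldhc fell to 0.16 with Tuba3a and 0.12 with Tuba3b. In these cells Pgk2 was at -0.49 with Tuba3a and -0.61 with Tuba3b, and Ccnb1 at -0.58 and -0.67. Hormad1 was at 0.59 with each.

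**Figure D2:**
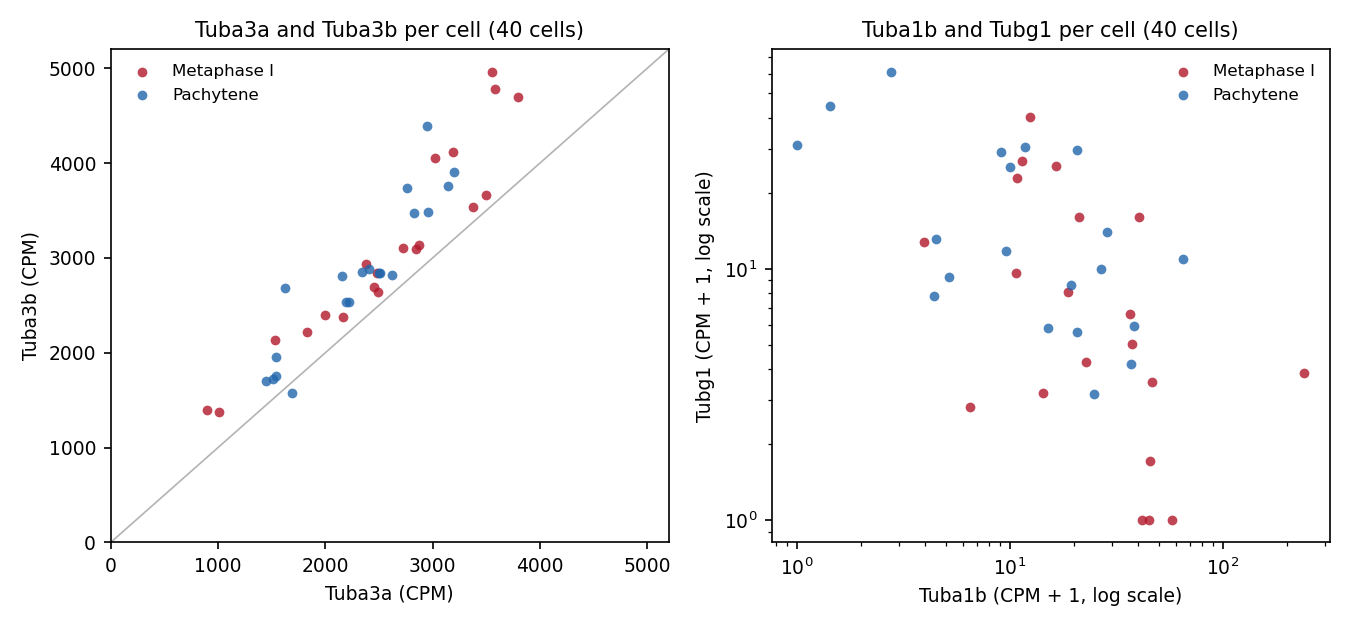
Each point is 1 cell, Metaphase I in red and Pachytene in blue. Left, CPM of Tuba3a against Tuba3b with a line at equal values: the points lie close to and mostly above it (correlation 0.95). Right, CPM + 1 of Tuba1b against Tubg1 on log scales: cells high in Tuba1b were low in Tubg1 (correlation -0.59).

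Promoter sequences were available from RefSeq (GRCm38.p6, 250 bases before to 50 bases after the start) for 8 of the 9 genes, all but Tubg1. They are printed for the 3 abundant genes, Tuba3a and Tuba3b because they moved together and Tubb4b as the abundant gene that did not follow them. Capitals mark CCAAT, the box bound by NF-Y, on the printed strand.
Tuba3a, chr6:125286032-125286331, minus strand: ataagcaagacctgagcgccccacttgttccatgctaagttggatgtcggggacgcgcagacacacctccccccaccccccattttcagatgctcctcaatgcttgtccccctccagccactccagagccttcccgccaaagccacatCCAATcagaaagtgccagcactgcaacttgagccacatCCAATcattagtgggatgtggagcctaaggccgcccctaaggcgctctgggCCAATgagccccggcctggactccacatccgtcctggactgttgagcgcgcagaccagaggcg
Tuba3b, chr6:145615713-145616012, plus strand: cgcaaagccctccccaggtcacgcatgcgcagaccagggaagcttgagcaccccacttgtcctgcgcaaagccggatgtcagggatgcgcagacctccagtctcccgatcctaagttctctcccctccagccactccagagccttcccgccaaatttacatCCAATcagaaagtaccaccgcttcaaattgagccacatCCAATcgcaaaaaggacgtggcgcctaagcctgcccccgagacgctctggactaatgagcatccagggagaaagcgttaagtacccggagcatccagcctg
Tubb4b, chr2:25224653-25224952, minus strand: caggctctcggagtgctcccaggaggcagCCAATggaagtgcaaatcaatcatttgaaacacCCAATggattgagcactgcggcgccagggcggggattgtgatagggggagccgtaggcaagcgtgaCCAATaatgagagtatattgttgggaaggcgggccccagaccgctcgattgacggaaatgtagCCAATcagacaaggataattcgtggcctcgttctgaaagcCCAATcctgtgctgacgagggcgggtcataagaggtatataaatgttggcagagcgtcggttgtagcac
Counted on both strands, CCAAT occurred 3 times for Tuba3a, 2 times for Tuba3b and 5 times for Tubb4b. At least 1 CCAAT was in 37.4% of 32851 RefSeq promoters of the same length, and 3 or more were in 3.37%. Of the other 5 genes with a promoter, Tubb5 had 2, Tuba1a and Tuba1c had 1 each, and Tuba1b and Tuba4a had 0. The GC box GGGCGG was in 6 of the 8 promoters (35.7% of all promoters hold it), and TTTGAA, the core of the cell cycle element CHR, was in those of Tuba3b and Tubb4b (17.9% of all). AACNG, the core of MYB sites, was in 6 of the 8 and in 80.3% of all promoters. Each motif was counted on both strands and separately from the others, so that matches may overlap. These matches describe the letters of the windows and not binding.

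The ubiquitous alpha tubulin genes lie in a cluster on chromosome 15, with Tuba1b at 98931425 to 98934565 and Tuba1a at 98949837 to 98953703, both on the minus strand, and Tuba1c at 99029891 to 99038110 on the plus strand. Tuba1b, the alpha tubulin gene of most dividing cells, was the one detected throughout. It had 2.94, 20.9 and 240 CPM as the lowest, median and highest of the Metaphase I cells, against 0, 12.4 and 63.7 CPM in Pachytene. It was counted in 20 Metaphase I cells and 19 Pachytene cells. The groups overlapped except for Metaphase I replicate 19, the cell at 240 CPM, which held 36.3% of the Tuba1b counts of its group.

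Summed, Tuba1b had 34.0 CPM (31.0 to 37.2) in Metaphase I and 15.1 CPM (13.3 to 17.0) in Pachytene, or 2.26-fold (1.94 to 2.63). Without replicate 19 the fold was 1.52 (1.28 to 1.80), and without the 8 libraries over 0.3% X-linked counts it was 1.32 (1.11 to 1.57). Tuba1b shares 87 exon bases with Gm41396 on the opposite strand, and the strand setting of the counting is not stated. The coding sequences of Tuba1a and Tuba1b differ at 23 of 1356 bases, and so their split is also uncertain where reads fall between differences.

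Tuba1a, best known from the developing nervous system, had both group medians at 0 CPM. It was counted in 5 Metaphase I cells and 1 Pachytene cell. Metaphase I replicate 19 reached 569 CPM and held 98.0% of the 409 counts of its group, the next cell (replicate 18) had 8.92 CPM, and Pachytene replicate 7 at 2.15 CPM held all 5 counts of its group. The fold of the sums was 105 (44.8 to 326), and without replicate 19 it was 2.17 (0.627 to 8.44), on 8 counts in Metaphase I and 5 counts in Pachytene. The difference in Tuba1a was thus that of 1 library.

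Tuba1c, a close relative expressed in many tissues, had 90 counts in 4 Metaphase I cells and 0 counts in Pachytene. Replicate 19 held 96.7% of them at 124 CPM, and the other 19 Metaphase I cells together held 3 counts. Against a floor of 3 counts over the Pachytene group, the sum was at least 38.7-fold higher in Metaphase I with replicate 19. Without replicate 19 both groups were at or under the floor, and no fold is given. When all cells were thinned to 340000 counts, Tuba1b was counted in 16 of 17 Metaphase I cells and 18 of 19 Pachytene cells, Tuba1a in 1 and 0, and Tuba1c in 2 and 0.

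Tuba4a, whose protein lacks the encoded tyrosine, lies on chromosome 1 at 75214228 to 75219865 on the minus strand. It had 0, 0 and 16.5 CPM as the lowest, median and highest Metaphase I cell, against 0, 0 and 29.7 CPM in Pachytene, and was counted in 7 Metaphase I cells and 6 Pachytene cells. Summed, it had 2.48 CPM (1.72 to 3.47) in Metaphase I and 5.66 CPM (4.61 to 6.89) in Pachytene, which is 2.28-fold lower (1.53 to 3.48), although on the log2 scale with 1 CPM added the ratio was -0.94. The libraries over 0.3% X-linked counts held 24 of the 34 Metaphase I counts and 98 of the 100 Pachytene counts. Pachytene replicate 7 alone held 69.0% of the Pachytene counts, and without it the log2 ratio was 0.20. Without the 8 libraries it was 0.72, on 10 counts in Metaphase I and 2 counts in Pachytene. Across the 40 cells the Tuba4a level had a Spearman correlation of 0.57 with the summed spermatid markers. The 5 libraries with the highest spermatid marker sums, from 7330 CPM in Metaphase I replicate 3 to 8417 CPM in Pachytene replicate 2, all held Tuba4a counts. The part of spermatid RNA in the Tuba4a difference was not tested. Tuba4a also shares 1379 exon bases with Stk16, a kinase gene on the opposite strand with 2101 counts in Metaphase I and 2235 in Pachytene.

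Because a share within a cell does not depend on that cell's depth, the isotype composition was also taken per cell. Tuba3a and Tuba3b made up 98.8% (98.7 to 98.9) of the 84477 alpha tubulin counts in Metaphase I and 99.6% (99.5 to 99.6) of the 89291 in Pachytene. Per cell, the lowest and the median were 70.9% and 99.4% in Metaphase I and 98.8% and 99.6% in Pachytene. Replicate 19 was the cell at 70.9%, where Tuba1a made up 17.6%, Tuba1b 7.44% and Tuba1c 3.83% of the alpha tubulin counts. Without it the Metaphase I share was 99.6%. Tuba1b was the most counted of the remaining alpha tubulin genes in both groups, at a median of 0.510% per cell in Metaphase I and 0.255% in Pachytene.

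**Figure D3:**
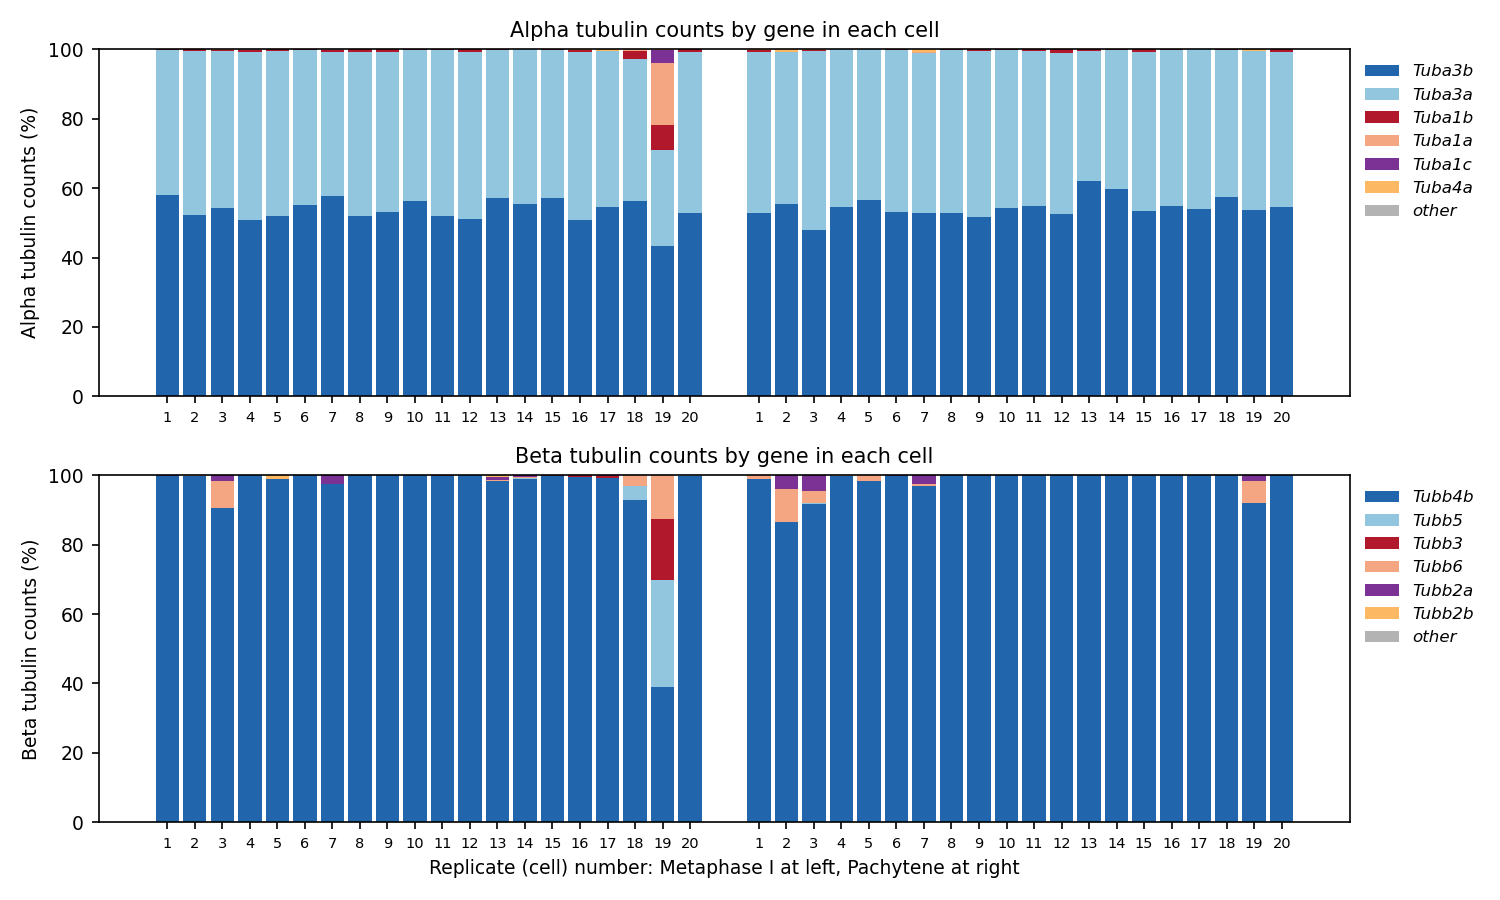
Share of the alpha tubulin counts (top) and beta tubulin counts (bottom) held by each gene in each cell, Metaphase I at left and Pachytene at right. Tuba3a and Tuba3b fill nearly all of each alpha bar and Tubb4b nearly all of most beta bars, except in Metaphase I replicate 19, where they hold 70.9% and 39.1%.

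Tubb4b, the beta tubulin gene whose protein is a main component of axonemes, lies on chromosome 2 at 25222160 to 25224702 on the minus strand. It had 277, 865 and 1138 CPM as the lowest, median and highest of the Metaphase I cells, against 364, 826 and 1058 CPM in Pachytene. Most cells of both groups fell in a narrow band, with quartiles of 814 and 933 CPM in Metaphase I and 785 and 875 CPM in Pachytene. The low cells were replicates 18, 19 and 16 of Metaphase I, at 277, 447 and 519 CPM, and replicates 5 and 12 of Pachytene, at 364 and 570 CPM. Summed, Tubb4b had 840 CPM (825 to 856) in Metaphase I and 838 CPM (825 to 852) in Pachytene, a fold of 1.00 (0.978 to 1.03). With each of the 40 cells left out in turn, the log2 ratio stayed between -0.02 and 0.04. Tubb4b shares 121 exon bases with Fam166a on the opposite strand, which had 45 counts in Metaphase I and 228 counts in Pachytene.

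Tubb4b did not follow the alpha pair from cell to cell, with Spearman correlations over the 40 cells of 0.17 with Tuba3a and 0.19 with Tuba3b. The genes most like it were Gpx4 (0.59), a glutathione peroxidase of the sperm midpiece, Dpep3 (0.57), a testis membrane dipeptidase, and Mea1 (0.55), a gene of male germ cells. Alpha tubulin counts exceeded beta tubulin counts in every cell. The summed ratio was 6.94 in Metaphase I and 5.93 in Pachytene, with medians per cell of 7.00 in Metaphase I and 6.21 in Pachytene. Single cells ran from 2.82 in replicate 19 to 13.8 in replicate 16 of Metaphase I, and from 3.16 in replicate 2 to 13.4 in replicate 5 of Pachytene. Per kilobase of exon the ratio was 8.87 in Metaphase I and 7.52 in Pachytene. The cell with the highest ratio had 519 CPM of Tubb4b in Metaphase I and 364 CPM in Pachytene, but the Metaphase I cell with the lowest ratio was also low in Tubb4b, at 447 CPM.

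Tubb5, the beta tubulin gene common in proliferating somatic cells, lies on chromosome 17 at 35833921 to 35838306 on the minus strand. Its group medians were both 0 CPM, and it was counted in 6 Metaphase I cells and 2 Pachytene cells. Metaphase I replicate 19 reached 352 CPM and held 94.7% of the 262 counts of its group, replicate 18 had 11.9 CPM, and no Pachytene cell exceeded 2.01 CPM. The summed fold was 169 (46.3 to 1401), on 2 Pachytene counts. Without replicate 19 it was 9.51 (2.18 to 86.2) on 14 Metaphase I counts, and without replicates 18 and 19 it was 6.97 (1.49 to 65.4) on 10. These intervals stay above 1 but rest on few molecules or reads, and 14 of 19 remaining Metaphase I cells had none. Replicates 13, 14, 15, 18 and 20 held them, with Sertoli marker sums from 30.9 to 220 CPM (group median 11.4 CPM). Replicates 16 and 17, at 117 and 75.1 CPM, had no Tubb5 counts. Across the 40 cells Tubb5 had a Spearman correlation of 0.62 with the summed Sertoli markers. The part of Sertoli cell RNA in the remaining Tubb5 difference was not tested.

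Tubb4b thus made up 94.6% (94.2 to 95.0) of the 12171 beta tubulin counts in Metaphase I and 98.4% (98.2 to 98.6) of the 15050 in Pachytene. The medians per cell were 99.7% in Metaphase I and 100% in Pachytene. The lowest cells were replicate 19 of Metaphase I at 39.1% and replicate 2 of Pachytene at 86.4%. In replicate 19, Tubb5 made up 30.8%, Tubb3 17.5% and Tubb6 12.7%. Without it the Metaphase I share was 98.6%, and without the 8 libraries over 0.3% X-linked counts it was 99.4% in Metaphase I and 99.9% in Pachytene.

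Tubg1, the gamma tubulin gene that nucleates microtubules in dividing cells, lies on chromosome 11 at 101119938 to 101126419 on the plus strand. It had 0, 4.82 and 39.4 CPM as the lowest, median and highest Metaphase I cell, against 2.17, 10.4 and 60.1 CPM in Pachytene. It was counted in 17 Metaphase I cells and in all 20 Pachytene cells. With cells thinned to 340000 counts, it was counted in 12 of 17 Metaphase I cells and 17 of 19 Pachytene cells, with 4 shallower cells left out. Summed, it had 11.7 CPM (10.00 to 13.7) in Metaphase I and 17.3 CPM (15.4 to 19.3) in Pachytene, which is 1.47-fold lower (1.21 to 1.79). Pachytene replicate 7, the deepest library, held 33.1% of the Pachytene counts, and without it the difference was 1.13-fold (0.917 to 1.40). Without the 8 libraries over 0.3% X-linked counts it was 1.01-fold (0.806 to 1.26), while the medians over the remaining cells were 4.82 CPM in Metaphase I and 9.48 CPM in Pachytene. The log2 ratio of Tubg1 was -0.52 with all cells and ran from -0.78 without Metaphase I replicate 1 to -0.17 without Pachytene replicate 7.

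Tuba1b and Tubg1 ran opposite to each other from cell to cell. Their Spearman correlation was -0.59 over the 40 cells, -0.57 within Metaphase I and -0.55 within Pachytene, and -0.66 over the 32 cells left without the X-linked libraries. The 4 Metaphase I cells with the least Tubg1 (replicates 8, 16 and 18 at 0 CPM and replicate 20 at 0.718 CPM) had 40.7, 44.0, 56.5 and 44.6 CPM of Tuba1b. At the other end, the Pachytene cells with the most Tubg1 (replicates 4, 7 and 5) had 60.1, 43.4 and 30.3 CPM of it. They had 1.77, 0.430 and 0 CPM of Tuba1b. Replicate 5 was the shallowest library, with 165048 counts, of which 5 were of Tubg1. The Metaphase I cell with the most Tubg1, replicate 1 at 39.4 CPM, had 11.4 CPM of Tuba1b. Tuba1b followed Aurka, the spindle kinase gene, at 0.60, and ran opposite to the synaptonemal complex gene Sycp1 at -0.56. For Tubg1 the signs were reversed, at -0.51 with Aurka and 0.53 with Sycp1. The related meiotic genes did not share this: Sycp2, Sycp3 and Hormad1 were at -0.03, 0.07 and 0.19 with Tuba1b and at 0.14, 0.07 and -0.01 with Tubg1. These pairs were picked after the values were seen, the counts are low, and no p-value is given.

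In order of level per kilobase of exon, the genes of Metaphase I were Tuba3b (1887 CPM per kb), Tuba3a (1815), Tubb4b (402), Tuba1b (18.1), Tuba1a (16.5), Tubb5 (5.74), Tubg1 (5.18), Tuba1c (2.87) and Tuba4a (0.670). In Pachytene the order was Tuba3b (1549 CPM per kb), Tuba3a (1513), Tubb4b (401), Tuba1b (8.03), Tubg1 (7.62), Tuba4a (1.53), Tuba1a (0.157), Tubb5 (0.0340) and Tuba1c (0). Tuba3b and Tuba3a are neighbours whose cells overlapped on this scale in both groups, as did those of Tuba1b and Tubg1 in Pachytene. The cells of Tuba3a and Tubb4b did not overlap on it, nor did those of Tubb4b and Tuba1b. In Metaphase I the places of Tuba1a, Tubb5 and Tuba1c were set by replicate 19. On summed CPM without the length, the Metaphase I order was the same. In Pachytene, Tubg1 (17.3 CPM) then stood above Tuba1b (15.1 CPM), so the order of these genes depended on the scale.

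On the log2 ratio of Metaphase I over Pachytene with 1 CPM added, 4 of the 9 genes were over 2-fold higher (Tuba1a, Tuba1b, Tuba1c and Tubb5) and 0 were over 2-fold lower. Among all 16174 genes with at least 20 summed counts, 8.49% were over 2-fold higher and 9.81% lower. The median log2 ratio was 0.28 over the 9 genes and -0.00 over all. Without Metaphase I replicate 19, 0 of the 9 were over 2-fold higher and 1 was lower (Tuba4a, -1.04), beside 4.98% and 9.94% of all genes. Without the 8 libraries over 0.3% X-linked counts, 1 was higher (Tubb5, 1.06) and 0 were lower, beside 5.65% and 3.69%. The median of the 9 was 0.31 without replicate 19 and 0.25 without the 8 libraries. The count of 4 thus came with 1 library. The abundant genes moved little: Tuba3a had log2 ratios of 0.26 with all cells, 0.31 without replicate 19 and 0.25 without the 8 libraries, Tuba3b had 0.28, 0.33 and 0.25, and Tubb4b had 0.00, 0.04 and 0.03.

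**Figure D4:**
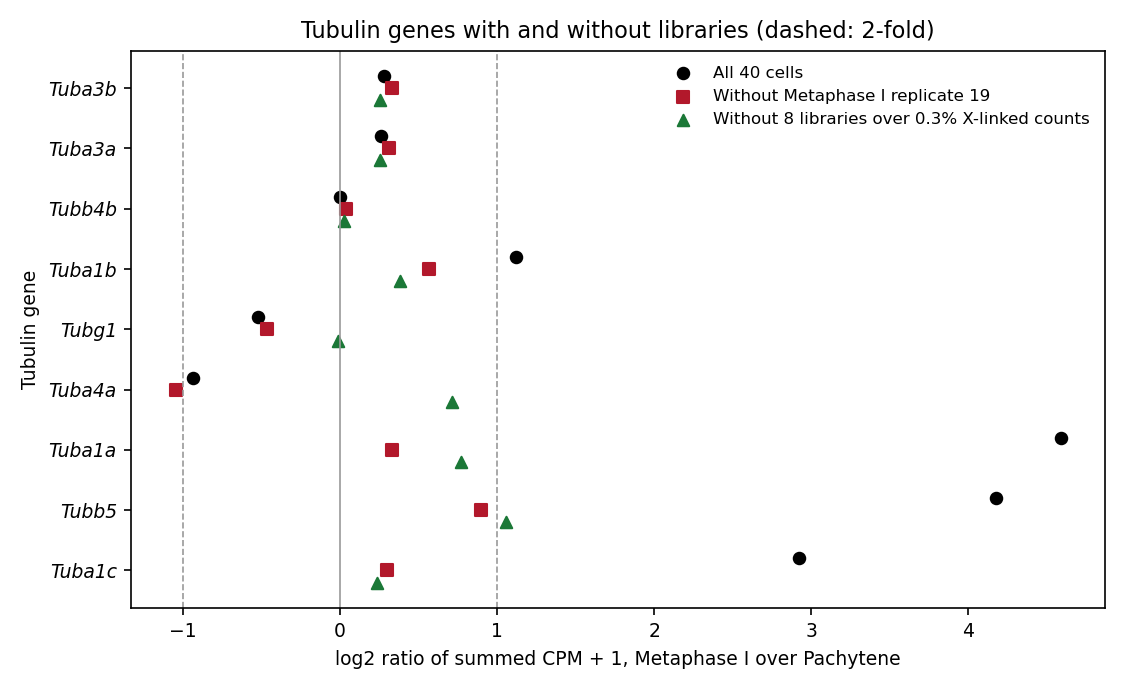
Log2 ratio of summed CPM + 1, Metaphase I over Pachytene, for each tubulin gene with all 40 cells (circles), without Metaphase I replicate 19 (squares) and without the 8 libraries over 0.3% X-linked counts (triangles), with dashed lines at 2-fold. Tuba1a, Tubb5 and Tuba1c lie at 4.59, 4.18 and 2.92 with all cells and under 1 without replicate 19.

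Of 11 other tubulin genes, 5 were measured with at least 20 summed counts, of which 1 passed 2-fold upward (Tubb3) and 0 downward, beside 8.49% and 9.81% of all genes. Their median log2 ratio was 0.03. Tubb3, the neuronal beta tubulin, had 147 counts in Metaphase I, 95.9% of them in replicate 19, and 0 in Pachytene. Tubb6, a beta tubulin of many somatic cells, had 14.1 CPM in Metaphase I and 7.53 CPM in Pachytene, and replicate 19 held 52.8% of the Metaphase I counts. Without that library the Tubb6 fold was 0.929 (0.704 to 1.22), against 1.87 (1.49 to 2.35) with all cells. Tubb2a had 2.77 CPM in Metaphase I and 6.11 CPM in Pachytene, with replicate 7 holding 46.3% of the Pachytene counts. The X-linked libraries held 104 of the 108 Pachytene counts of Tubb2a, and without them the direction turned, at 1.41 CPM in Metaphase I and 0.292 CPM in Pachytene, on 16 and 4 counts. Tubd1, the delta tubulin of centrioles, was the most abundant of the list and was counted in all 40 cells, at medians of 56.6 CPM in Metaphase I and 51.8 CPM in Pachytene. Tube1, the epsilon tubulin that acts with it, had medians of 4.74 CPM in Metaphase I and 4.18 CPM in Pachytene. Both centriolar tubulins were thus close between the groups, with summed folds of 0.913 (0.833 to 1.00) and 1.02 (0.761 to 1.37). The pseudogene Tubb4b-ps1, whose sequence derives from Tubb4b, had 76 counts in Metaphase I, 69 of them in replicate 3, and 300 counts in Pachytene, 280 of them in the X-linked libraries.

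New tubulin is folded by the prefoldin and CCT chaperones and assembled into dimers by the cofactors TBCA to TBCE. All 24 genes of that list were measured, 1 over 2-fold higher and 1 lower, beside 8.49% and 9.81% of all genes, with a median of 0.05. The higher one was Pdcl3, a phosducin-like CCT partner, with 57 counts in Metaphase I, 93.0% of them in replicate 19, and 0 in Pachytene. The lower one was Arl2, the small GTPase of the cofactor complex, with 20.6 CPM in Metaphase I and 50.7 CPM in Pachytene, or 2.45-fold lower (2.15 to 2.82). Pachytene replicate 7 held 36.5% of the Pachytene counts of Arl2, and Metaphase I replicate 3 held 40.6% of those of its own group. Arl2 was 1.79-fold lower (1.55 to 2.08) without Pachytene replicate 7 and 1.94-fold lower (1.60 to 2.37) without the 8 X-linked libraries. Vbp1, a prefoldin subunit, had 16 counts in Metaphase I and 10 counts in Pachytene. The most abundant gene of the list was Pdcl2, the germline phosducin-like protein, at medians of 1573 CPM in Metaphase I and 1617 CPM in Pachytene. Without replicate 19 the list had 0 higher and 1 lower, beside 4.98% and 9.94% of all genes. Without the 8 X-linked libraries it had 1 higher and 0 lower, beside 5.65% and 3.69%. That higher gene was Tbcel, at a log2 ratio of 1.01, and not Pdcl3.

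Of the gamma-tubulin ring complex and augmin, which nucleate microtubules with Tubg1, all 17 genes were measured, 2 were over 2-fold higher and 0 lower, beside 8.49% and 9.81% of all genes, and the median was 0.03. Tubgcp5, a subunit of the ring, had 14.0 CPM in Metaphase I and 4.93 CPM in Pachytene, or 2.84-fold (2.20 to 3.71). Haus8, an augmin subunit, had 9.99 CPM in Metaphase I and 3.79 CPM in Pachytene, or 2.63-fold (1.95 to 3.58). Both also passed 2-fold without replicate 19 and without the 8 X-linked libraries, where 4.98% and 5.65% of all genes were higher. Metaphase I replicate 13 held 44.8% of the Tubgcp5 counts of its group. Without that cell 1 gene of the list was over 2-fold higher, but the share over all genes was not taken for this omission. The median over cells of Tubgcp5 was 0 CPM in Metaphase I and 0.528 CPM in Pachytene. Haus6 had medians of 17.8 CPM in Metaphase I and 13.0 CPM in Pachytene. Haus1, the most abundant, had medians of 347 CPM in Metaphase I and 360.2 CPM in Pachytene.

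The enzymes that modify tubulin, on its tails or, for Atat1, Hdac6 and Sirt2, at an acetylated lysine elsewhere in alpha tubulin, had 26 of 28 genes measured. Of these, 0 were over 2-fold higher and 2 lower, beside 8.49% and 9.81% of all genes, and the median was -0.20. Vash2, a vasohibin that removes the last tyrosine shown above, had 12.4 CPM in Metaphase I and 25.9 CPM in Pachytene, or 2.09-fold lower (1.75 to 2.51). Ttll8, a glycylase, had 3.14 CPM in Metaphase I and 7.36 CPM in Pachytene, or 2.35-fold lower (1.65 to 3.39). Pachytene replicate 7 held 66.2% of the Vash2 counts and 64.6% of the Ttll8 counts of its group. Omitting that library gave log2 ratios of 0.27 for Vash2 and 0.05 for Ttll8, against -1.01 and -1.02 with all cells. Ttll10, also a glycylase, had 23.6 CPM in Metaphase I and 45.4 CPM in Pachytene with all cells. In the 32 cells left without the 8 X-linked libraries the direction turned for all 3, with log2 ratios of 1.44 for Vash2, 1.11 for Ttll10 and 0.74 for Ttll8, on 35, 56 and 9 counts in Metaphase I and 7, 24 and 1 counts in Pachytene. Svbp, the small partner that vasohibins need, was the most abundant, at medians of 286 CPM in Metaphase I and 292 CPM in Pachytene.

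Among 25 measured of 28 severing and binding proteins, 5 were over 2-fold higher and 1 was lower, beside 8.49% and 9.81% of all genes, with a median of 0.16. The 5 were Katnbl1, Map7d1, Clasp1, Ckap5 and Map9, and the lower one was Clip1. Metaphase I replicate 19 held 43.4% of the Clasp1 counts of its group, and without it the Clasp1 fold was 1.23 (1.05 to 1.45), against 2.06 (1.79 to 2.38) with all cells. Katnbl1, a regulator of the severing enzyme katanin, had 85 counts in Metaphase I and 9 counts in Pachytene, or 12.2-fold (6.12 to 27.5), and was counted in 9 Metaphase I cells and 3 Pachytene cells. Map7d1, a microtubule-binding protein, had 6.71 CPM in Metaphase I and 2.43 CPM in Pachytene, or 2.76-fold (1.90 to 4.06). Its medians were 0 CPM in both groups, and it was counted in 9 cells of each. Metaphase I replicate 15 held 31.5% of the Map7d1 counts of its group, and Pachytene replicate 17 held 41.9%. Clip1, a protein of growing microtubule ends, had 30.6 CPM in Metaphase I and 96.6 CPM in Pachytene, or 3.15-fold lower (2.83 to 3.52), and Pachytene replicate 7 held 47.6% of its group's counts. Without that library Clip1 was 1.90-fold lower (1.69 to 2.14). The most abundant gene was Map1lc3a, an LC3 protein first found on microtubules, at medians of 307 CPM in Metaphase I and 346 CPM in Pachytene. Without replicate 19, 4 genes of the list were over 2-fold higher and 2 lower, beside 4.98% and 9.94% of all genes. Without the 8 X-linked libraries, 4 were higher and 0 lower, beside 5.65% and 3.69%. The 4 were Katnbl1, Map7d1, Ckap5 and Map9 each time. Omitting Metaphase I replicate 13 left 1 gene over 2-fold higher, and omitting Pachytene replicate 7 left 2. For these 2 omissions the share over all genes was not taken.

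Free tubulin dimers cause decay of tubulin mRNA through TTC5, which binds the nascent tubulin, with SCAPER and the CCR4-NOT subunit CNOT11. All 3 genes were measured, 0 over 2-fold higher and 0 lower, beside 8.49% and 9.81% of all genes, with a median log2 ratio of 0.55. Ttc5 had medians of 14.0 CPM in Metaphase I and 13.3 CPM in Pachytene and a summed fold of 1.69 (1.44 to 1.98). Scaper, the most abundant, had medians of 80.0 CPM in Metaphase I and 74.6 CPM in Pachytene and a summed fold of 1.47 (1.37 to 1.59), with Metaphase I replicate 18 as its highest cell at 422 CPM and replicate 13 holding 27.1% of its group's counts. Cnot11 had medians of 23.6 CPM in Metaphase I and 21.1 CPM in Pachytene.

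**Figure D5:**
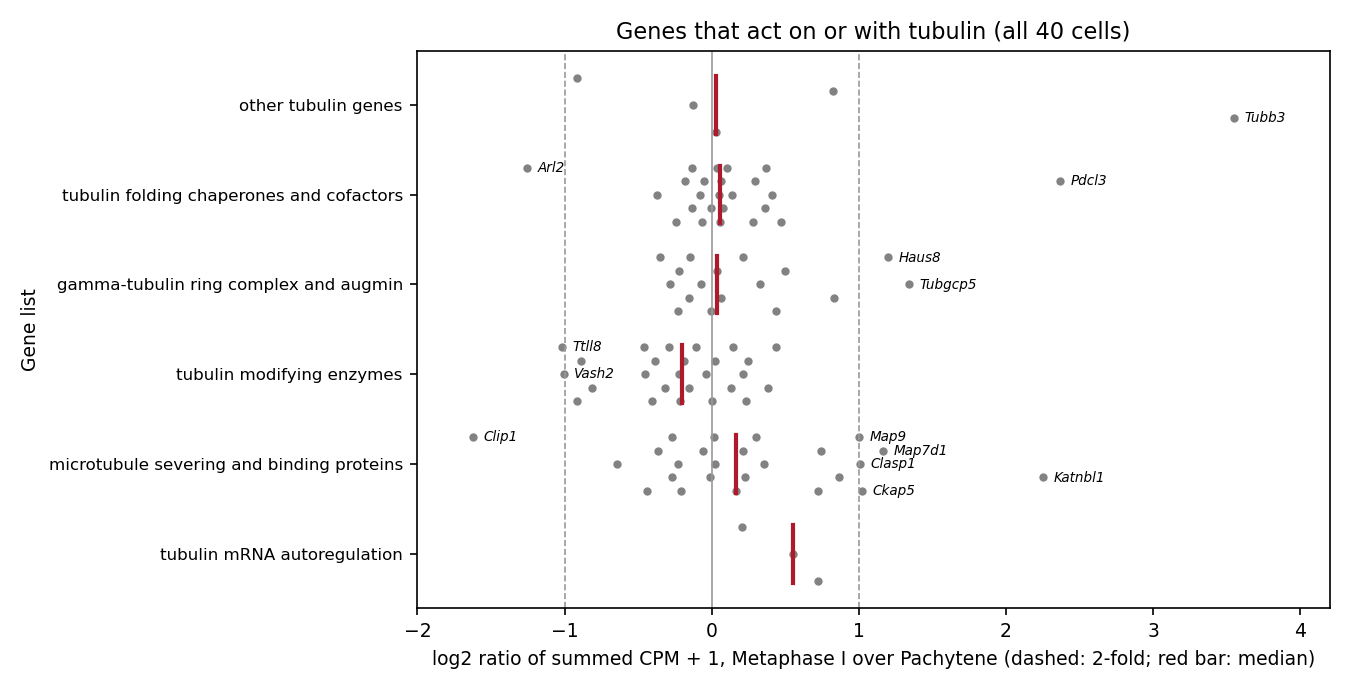
Log2 ratio of summed CPM + 1, Metaphase I over Pachytene, of each measured gene of 6 lists, with a red bar at the list median and dashed lines at 2-fold. Most genes lie between the dashed lines, and the medians run from -0.20 for the modifying enzymes to 0.55 for the autoregulation genes.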

How the data were processed

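Single cells were profiled with a modified STRT-seq method that keeps the 3′ ends of cDNA after PCR, per the labels' protocols. The submitters' processing notes name UMI-tools, STAR, featureCounts and GRCm38, with no versions. The deposited values are whole-number counts per gene, with exon coordinates and a length in bases, per the file headers. The sources used here do not say if counts are reads or molecules, nor the strand setting. Each of the 40 value columns carries the name of 1 library.

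Group levels are summed counts over summed totals, computed in Python 3.11.15. The log2 ratio has Metaphase I on top and 1 CPM added to each group. Sums have Poisson, folds conditional binomial and shares Clopper-Pearson intervals, which are too narrow if counts are reads. A gene was measured at 20 or more summed counts. No doublet caller was run on 40 cells. Pairs of libraries differed by a chi-square per degree of freedom of 2.69 or more, so none was treated as a copy. The code was tested on simulated data.

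The 9 genes and all lists were chosen with earlier results of these data known. Named genes were the 9, the 3 largest absolute ratios and the most abundant gene of each list, and, for genes with 1000 or more summed counts, the 3 genes with the highest Spearman correlation, without mitochondrial, ribosomal protein or unnamed genes. Other named genes were chosen after their values were seen. One sequence is not reported here. Alternatives were TMM factors (edgeR 4.0.16), median-of-ratios factors (DESeq2 1.42.0), equal weight per cell, medians over cells, a pseudocount of 10 CPM, totals without mitochondrial and ribosomal protein genes, count minimums of 0 and 100, thinning to 340000 counts and omission of libraries.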

Additional observations from a re-analysis of the deposited data

How the results depend on the processing

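The number of the 9 tubulin genes over 2-fold higher was 4, and it was 0 on medians over cells, 2 with a pseudocount of 10 CPM, 1 without the 8 X-linked libraries and 0 without Metaphase I replicates 18 and 19 (an omission chosen after seeing the data), with 0 to 4 when each cell was left out in turn. The number lower was 0, and 1 without replicates 18 and 19, with 0 to 1 over single omissions. Among all genes, 8.49% were higher and 9.81% lower with all cells. The shares were 4.98% and 9.94% without replicate 19, and 5.65% and 3.69% without the 8 X-linked libraries. On the other settings the share over all genes was not taken. Counts on those settings therefore cannot be set against it, here or for the lists below. On medians over cells the numbers higher were 0 of the other tubulin genes, 0 of the folding genes, 0 of the ring complex and augmin, 1 of the modifying enzymes and 0 of the severing and binding proteins, and the number of modifying enzymes lower was 0. With equal weight per cell, 1 ring complex or augmin gene and 1 severing or binding protein were higher and 0 modifying enzymes were lower. Without the X-linked libraries 0 other tubulin genes and 2 modifying enzymes were higher, and 0 folding genes, 1 modifying enzyme and 0 severing or binding proteins were lower. Without Metaphase I replicate 13, replicate 19 or Pachytene replicate 7, the numbers higher ran 0 to 1, 0 to 1, 1 to 2, 0 to 0 and 1 to 4 for the other tubulin, folding, ring complex, modifying and severing lists, and the numbers lower 0 to 1, 0 to 1, 0 to 0, 0 to 0 and 0 to 2. The Tuba3a and Tuba3b share of alpha tubulin counts was 99.4% on medians, 99.0% per kilobase and 99.6% without the X-linked libraries in Metaphase I (98.7 to 99.6 over single omissions), and 99.7% per kilobase and 99.7% without the X-linked libraries in Pachytene (99.55 to 99.64). The Tubb4b share of beta tubulin counts was 99.7%, 95.4% and 99.4% on the same 3 settings in Metaphase I (94.1 to 98.6), and 100% on medians and 99.9% without the X-linked libraries in Pachytene (98.2 to 98.9). The log2 ratio of Tuba3a with Tuba3b was 0.23 with TMM and 0.21 with median-of-ratios factors. No paired analysis was possible because the replicate numbers only name cells and the results come from no test. With 1 sample per group, the spread between animals is not known, and genes with few counts, such as Tuba1c and Tubb5, are limited by depth.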
